A study of Mus musculus with 2 samples.

Results

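The keratins described here are 7 intermediate filament genes of the lung epithelium, taken by symbol from the 28692 genes counted in both libraries. Krt5, Krt7 and Krt8 encode type II keratins, and Krt14, Krt15, Krt18 and Krt19 encode type I keratins. Their levels were compared over 5 cell classes of 2 droplet single-cell libraries, one of a tumor-bearing wild type C57BL/6 mouse lung taken at day 14 after 1000000 luciferase-labelled Lewis lung carcinoma (LLC) cells had been placed under the skin of the back, and one of the lung of an untreated wild type C57BL/6 mouse without tumor (control). Both lungs were enzymatically digested, and cells without CD45 and positive for surfactant protein C (SftpC) were sorted, a gate meant for alveolar type 2 (AT2) cells. Ages are not given, and LLC cells form a transplanted line that sheds metastases to the lung.

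Each keratin filament pairs a type I with a type II protein in equal amounts, so every epithelial cell needs at least one of each. Krt5 with Krt14 or Krt15 is the classical set of airway basal cells, Krt8 with Krt18 is the set of simple epithelium, and Krt7 and Krt19 are simple-epithelial keratins that mark alveolar type 1 (AT1) cells in the mouse. In injured mouse alveoli, AT2 cells that are turning into AT1 cells pass through a state named after its high Krt8.

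There was 1 library in each group, so no difference between the libraries could be tested, and it cannot be told apart from a difference between 2 mice, 2 sorts or 2 library preparations. Levels are counts of unique molecular identifiers (UMIs), scaled to 1000000 UMIs of a class (CPM), with exact 95% Poisson intervals. Shares of cells have exact 95% binomial intervals. All intervals cover counting error only.

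The libraries held 84448360 UMIs (tumor-bearing) and 91498124 UMIs (control), and 8193 and 11007 barcodes reached 2000 UMIs. Of these, 128 barcode sequences occurred in both libraries, against 122 expected by chance from the size of the barcode list. AT2 cells, defined as barcodes with at least 2000 UMIs of which at least 15% were Sftpc, numbered 6729 and 10008. Clusters of the remaining barcodes, made without keratin genes, gave 19 and 41 basal-like, 257 and 69 club-like, 215 and 283 ciliated-like, and 131 and 275 AT1-like cells. A class of 482 and 57 endothelial-like cells, which should lack keratins, was used as a background and taken to hold them as free RNA. This was not tested. The class had summed AT1 markers of 3441 and 5607 CPM, against 2927 and 2751 CPM in AT2 cells. Krt7 and Krt19 mark AT1 cells, so their levels in this class cannot be taken as free RNA alone. The 8 basal-like markers summed to 3664 and 3000 CPM in basal-like cells, whose leading gene, Dcn, is better known from fibroblasts; 4 and 5 of the 7 fibroblast markers were at 0 there and only Dcn passed 20 CPM. At least 7 of 8 basal, 10 of 10 club, 12 of 12 ciliated, 12 of 12 AT1 and 11 of 11 AT2 markers reached 20 CPM in their own class in both libraries. The sort was meant to remove all but AT2 cells, so the numbers of the other cells say nothing of their shares in the lung.

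Krt5, Krt7, Krt8 and Krt18 lie on chromosome 15 and Krt14, Krt15 and Krt19 on chromosome 11 (GRCm38, GENCODE vM21). Krt5 (ENSMUSG00000061527) spans 101707070 to 101712898 on the minus strand, Krt7 (ENSMUSG00000023039) 101411043 to 101430313 on the plus strand, Krt8 (ENSMUSG00000049382) 101996698 to 102004482 on the minus strand and Krt18 (ENSMUSG00000023043) 102028180 to 102032027 on the plus strand. Krt8 and Krt18 are thus neighbours that point away from each other, with 23697 bases between them. On the minus strand of chromosome 11, Krt15 (ENSMUSG00000054146) spans 100131758 to 100135928, Krt19 (ENSMUSG00000020911) 100140810 to 100148665 and Krt14 (ENSMUSG00000045545) 100203162 to 100207548, with 4881 bases between Krt15 and Krt19. Krt5, Krt7 and Krt8 each overlap a gene on the other strand that was not counted (a microRNA, an antisense RNA and a long intergenic RNA). Krt14 has close paralogs in Krt16 and Krt17, so reads shared among them make its count uncertain.

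Shown for the chromosome 15 genes are the bases upstream of the RefSeq start. These 4 genes were chosen because they run from a gene found, among the 5 classes, almost only in basal-like cells to a pair found in every class. The bases are RefSeq promoters of GRCm38.p6, read 5′ to 3′ on the strand of the gene, without bases that GENCODE places in an untranslated region. Capitals mark the letters GGGCGG or its reverse complement, a GC box, and the letters ATAAAAG, which were searched after the sequences had been read.
Krt5, chr15:101712906-101713155, minus strand: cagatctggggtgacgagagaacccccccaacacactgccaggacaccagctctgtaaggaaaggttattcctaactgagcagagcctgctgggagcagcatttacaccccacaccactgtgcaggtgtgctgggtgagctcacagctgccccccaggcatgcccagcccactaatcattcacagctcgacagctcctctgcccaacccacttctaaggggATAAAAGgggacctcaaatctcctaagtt
Krt7, chr15:101412153-101412401, plus strand: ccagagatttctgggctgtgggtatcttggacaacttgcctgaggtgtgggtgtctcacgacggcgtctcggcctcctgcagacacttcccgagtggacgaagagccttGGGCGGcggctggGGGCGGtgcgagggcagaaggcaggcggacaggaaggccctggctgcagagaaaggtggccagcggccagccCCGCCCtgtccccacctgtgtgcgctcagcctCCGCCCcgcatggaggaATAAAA
Krt8, chr15:102004483-102004592, minus strand: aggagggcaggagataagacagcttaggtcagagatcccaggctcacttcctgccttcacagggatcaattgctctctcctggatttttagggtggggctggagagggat
Krt18, chr15:102027966-102028179, plus strand: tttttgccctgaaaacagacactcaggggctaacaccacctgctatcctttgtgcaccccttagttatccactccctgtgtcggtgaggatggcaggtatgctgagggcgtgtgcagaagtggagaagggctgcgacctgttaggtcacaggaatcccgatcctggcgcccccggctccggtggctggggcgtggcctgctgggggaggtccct
Over the 250 bases upstream of the RefSeq start, Krt7 held 4 GC boxes and Krt5, Krt8, Krt14 and Krt18 held 0. Of 27025 promoters of that length, 32.9% held a GC box on either strand. The windows of Krt7 and of Krt14 (100206031 to 100206280) lie within the GENCODE spans of these genes given above. Those of Krt8 and Krt18 run partly into theirs. ATAAAAG stood once in Krt5 and once in Krt7, where its last base falls outside the stretch printed above, and in 5.14% of all promoters. The letters TATAAA (13.0% of promoters), CCAAT (34.5%) and TGANTCA (6.87%) were in none of the 5 members' windows on either strand. TATAAA and ATAAAAG can overlap. Krt15 and Krt19 are named only.

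Krt15 was the most abundant keratin of basal-like cells, the stem cells of the airway. It stood at 4150 CPM (3819 to 4502) in tumor-bearing and 4556 CPM (4282 to 4842) in control basal-like cells. Every one of the 19 and 41 cells held Krt15 after each was thinned to 2000 UMIs, and it supplied 50.2% and 60.2% of the UMIs of the 7 keratins there. Outside that class its level reached 20.9 and 57.9 CPM in club-like cells and at most 4.85 and 3.13 CPM in ciliated-like, AT1-like and AT2 cells.

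Krt5 marked the same cells at a lower level. It had 1209 CPM (1034 to 1406) in tumor-bearing and 749 CPM (641 to 870) in control basal-like cells, a ratio of 1.61 (1.30 to 2.01). It was found in 14 of 19 and 28 of 41 thinned basal-like cells, and all of those cells also held Krt15. Ciliated-like and AT1-like cells gave 0 Krt5 UMIs in both libraries, which allows up to 2.61 and 2.32 CPM in ciliated-like cells (3 counts of the class total). In AT2 cells 14 and 19 UMIs amounted to 0.22 and 0.26 CPM.

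Krt14, the textbook type I partner of Krt5 in stratified epithelium, was nearly missing. Tumor-bearing basal-like cells had 0 Krt14 UMIs, which allows up to 21.5 CPM, and control basal-like cells had 7 UMIs in 3 of 41 cells, 30.8 CPM (12.4 to 63.5). These intervals overlap, so no difference was detectable at this depth. In the compared classes, the other Krt14 UMIs were 7 in 1 club-like cell of the tumor-bearing library and 1 in a control AT2 cell. Outside these classes, 19 fibroblast-like cells of the tumor-bearing library had 4 Krt14 UMIs, 61.2 CPM (16.7 to 157). The 8 control fibroblast-like cells had 0.

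Basal-like cells also held every simple-epithelial keratin. Krt19 stood at 1016 CPM in tumor-bearing and 789 CPM in control cells, Krt18 at 873 and 599 CPM, Krt7 at 608 and 515 CPM and Krt8 at 408 and 330 CPM. The median thinned basal-like cell had 5 (tumor-bearing) and 4 (control) of the 7 keratins. Type I keratins made up 73.1% (70.4 to 75.6) and 78.9% (76.9 to 80.8) of the keratin UMIs, more than in any other class of either library. UMIs were not divided by gene length, since each marks one captured transcript end, so levels of different genes are set side by side as UMIs only, and genes can differ in capture.

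At least 4-fold above AT2 cells of the same library, with separate intervals, were 4 of 6 keratins tested in tumor-bearing basal-like cells. These were Krt5, Krt7, Krt15 and Krt19, where 13.1% of all genes tested were called. In control basal-like cells 5 of 7 were called, the same 4 and Krt14, where 10.3% of all genes were. Without the 10 genes over 1% of the UMIs of some class, Krt7 was 3.99-fold and 2.92-fold above AT2 cells. A difference between the libraries was called where the ratio was 0.8 or less, or the inverse of 0.8 or more, and the 2 intervals did not overlap. Krt5 and Krt18 were called higher in tumor-bearing basal-like cells, 2 of 7 (ratio of Krt18 1.46, 1.13 to 1.87), against 0.938% of all genes, and none was called lower, against 0.566%. Krt15, at 0.911 (0.822 to 1.01), was not. Summed club markers in basal-like cells were 16022 and 10358 CPM and summed AT2 markers 35050 and 39863 CPM, and their part in the ratios was not tested. With 19 and 41 cells these ratios rest on 122 to 170 UMIs a library for Krt5 and Krt18. With a minimum of 3500 UMIs per barcode 1 of the 2 was called.

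Among the squamous and injured airway genes, Krt17, a type I keratin of stressed and stratified epithelium, stood at 587 and 339 CPM in basal-like cells, and Sfn, the 14-3-3 protein sigma of epithelial cells, at 594 and 176 CPM. Both were called higher in the tumor-bearing library, 2 of 4 tested in that list, with none lower. Among all genes tested in basal-like cells, 0.938% were called higher and 0.566% lower. Sfn is also in the list of AT2 to AT1 transition genes, so the counts of these lists share it. Of 10 AT2 to AT1 transition genes tested in basal-like cells, 3 were called higher and none lower, Sfn, Lgals3 (galectin 3, 351 and 163 CPM) and Ctgf (a matricellular protein, 537 and 225 CPM). Perp, a desmosome component, had 937 and 855 CPM and was not called, nor was any other of 9 tested desmosome and keratin linker genes. Of 8 keratin regulators tested, Klf5 was called lower, at 250 and 445 CPM, and none higher; Trp63, the master regulator of basal cells, stood at 222 and 106 CPM and was not called.

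**Figure D1:**
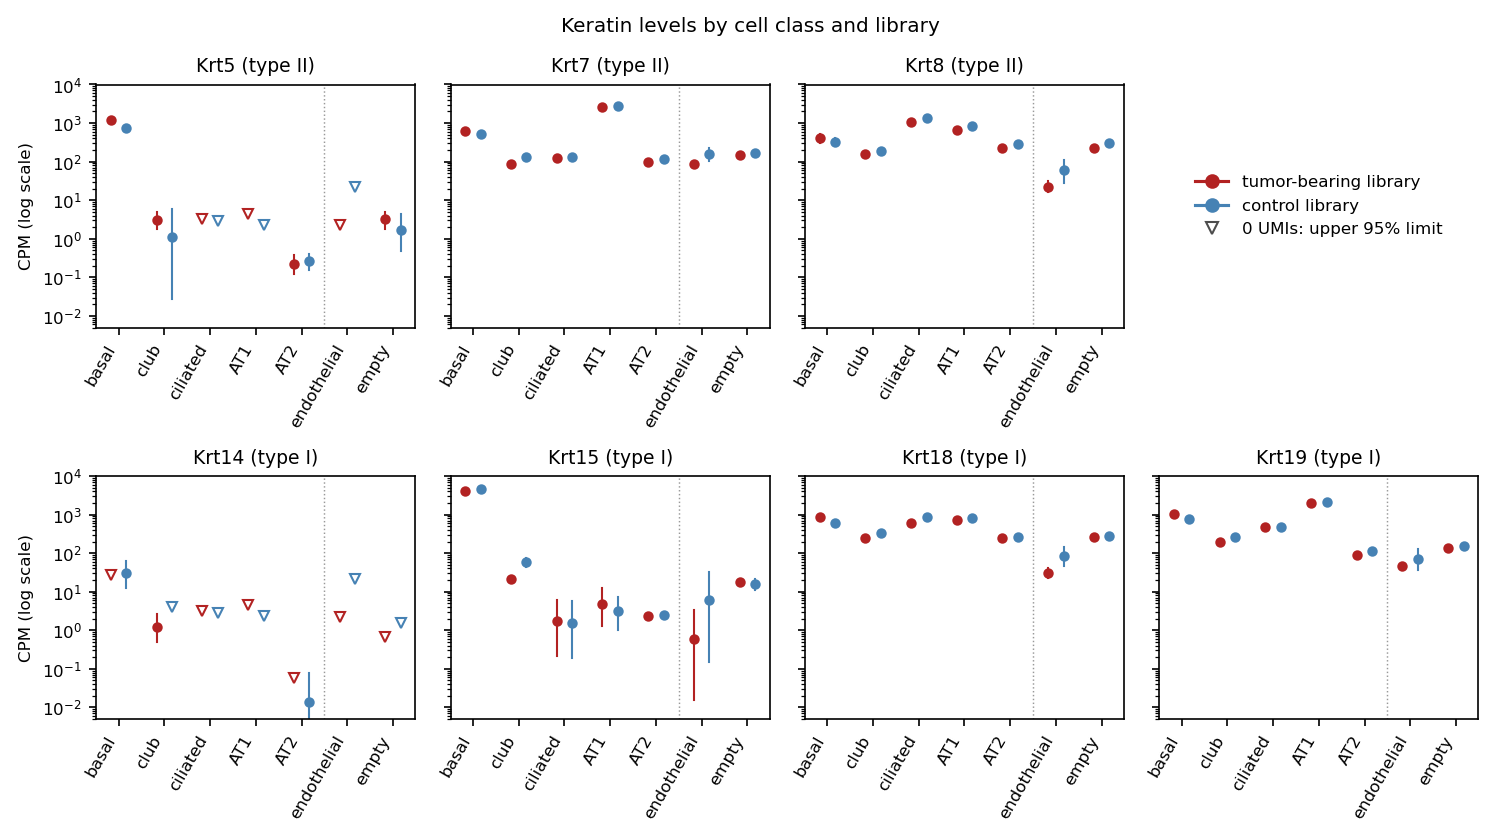
CPM of each keratin (log axis) in 5 cell classes, endothelial-like cells and empty droplets (1 to 100 UMIs), in the tumor-bearing (red, left) and control (blue, right) library. Points are summed counts with exact 95% Poisson intervals, cut at the lower edge where they run past it, and open triangles are upper limits for 0 UMIs; Krt5 and Krt15 stand out in basal-like cells, Krt7 and Krt19 in AT1-like cells and Krt8 in ciliated-like cells.

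AT1-like cells, the thin gas-exchange cells, were the Krt7 and Krt19 class. Krt7 stood at 2539 CPM (2431 to 2650) in tumor-bearing and 2726 CPM (2646 to 2808) in control AT1-like cells, 25.9-fold and 23.5-fold above AT2 cells. Krt19 had 1953 CPM (1859 to 2051) and 2138 CPM (2067 to 2211), 21.3-fold and 18.7-fold above AT2 cells. Without the 10 genes over 1% of the UMIs of some class, Krt7 was 18.1-fold and 16.1-fold and Krt19 14.9-fold and 12.9-fold above AT2. After thinning, 96.9% and 97.5% of the cells held Krt7, and 89.3% and 89.8% held both Krt7 and Krt19. They supplied most keratin UMIs of AT1-like cells, Krt7 43.1% and 41.8% and Krt19 33.2% and 32.8%.

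Krt8 and Krt18 were lower in AT1-like cells, and neither was called 4-fold above AT2. Krt18 had 733 and 816 CPM, and Krt8 had 659 CPM (604 to 716) and 841 CPM (797 to 887). The 4-fold rule called 2 of 4 tested keratins in each library, against 14.8% and 12.8% of all genes.

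Krt8 was the one keratin called between the libraries in AT1-like cells, at a ratio of 0.783 (0.707 to 0.866), where 3.84% of genes were called lower and 4.17% higher. Krt7, Krt19 and Krt18 had ratios of 0.931, 0.913 and 0.898. The class held one cluster of 113 tumor-bearing and 163 control cells and another of 18 and 112 cells, in which Krt8 was higher, at 1073 and 1047 CPM. In the first cluster Krt8 stood at 619 and 752 CPM, a ratio of 0.823 (0.733 to 0.923), and in the second the ratio was 1.02 (0.796 to 1.30). With both clusters weighted equally the AT1-like ratio of Krt8 was -0.09 on the log2 scale and no keratin was called.

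In AT1-like cells the summed endothelial markers were 326 and 101 CPM, the summed AT2 markers 13328 and 24694 CPM, the summed club markers 5834 and 1450 CPM and the summed fibroblast markers 535 and 132 CPM. Their part in the ratios was not tested. Klf4, an epithelial transcription factor, was called higher at 87.3 and 41.9 CPM, 1 of 3 keratin regulators tested. Vim, the mesenchymal filament vimentin, was called higher at 31.5 and 13.1 CPM, which is 56.3% and 84.7% of its level in empty droplets, beside summed smooth muscle markers of 31.5 and 4.38 CPM. Lmna, a nuclear lamin, was called lower at 164 and 248 CPM. Of all genes tested in AT1-like cells, 4.17% were called higher and 3.84% lower. Other cells with AT1 markers joined to endothelial (56 and 19 cells) or AT2 markers (21 and 43 cells) were left unnamed and out of the class. Krt7 in those clusters stood at 929 and 1232 CPM beside endothelial markers and at 1169 and 1545 CPM beside AT2 markers.

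Ciliated-like cells, the multiciliated cells of the airway, had the most Krt8 of the 5 classes. Krt8 stood at 1037 CPM (979 to 1097) in tumor-bearing and 1387 CPM (1324 to 1453) in control ciliated-like cells, 4.49-fold and 4.86-fold above AT2 cells. Krt18 had 623 CPM (578 to 670) and 882 CPM (832 to 935). Krt19 had 470 and 466 CPM, 5.13-fold and 4.08-fold above AT2 cells, and Krt7 had 125 and 128 CPM, near the 86.1 and 155 CPM of endothelial-like cells. Krt8 supplied 45.9% and 48.4% of the keratin UMIs, and Krt5 and Krt14 none.

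The 4-fold rule called 2 of 4 tested keratins in ciliated-like cells of each library, against 22.2% and 21.1% of all genes. This call depends on the scale. Sftpc and 9 other genes that each pass 1% of the UMIs of some class fill much of the AT2 total, and without them Krt8 was 2.91-fold and 3.19-fold and Krt19 3.32-fold and 2.68-fold above AT2 cells.

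Krt8 and Krt18 were both lower in tumor-bearing ciliated-like cells, at ratios of 0.747 (0.694 to 0.805) and 0.706 (0.642 to 0.776), and Krt7 (0.975) and Krt19 (1.01) were not. That is 2 of 4 called lower, against 2.58% of all genes, while 2.85% were called higher. One ciliated-like cluster (158 and 164 cells) had Krt8 at 851 and 949 CPM and Krt18 at 484 and 503 CPM. The other (57 and 119 cells), led by the same ciliary genes and Mt2, a metallothionein, had Krt8 at 1470 and 1884 CPM and Krt18 at 946 and 1313 CPM. In the first the ratio of Krt8 was 0.896 (0.804 to 0.999) and of Krt18 0.963 (0.831 to 1.12); in the second they were 0.780 (0.701 to 0.867) and 0.720 (0.631 to 0.820). Endothelial-like cells also had less Krt8 (22.6 and 59.7 CPM, with overlapping intervals) and Krt18 (31.2 and 83.5 CPM) in the tumor-bearing library, and empty droplets had 221 and 306 CPM of Krt8. After free RNA scaled by hemoglobin was subtracted, the log2 ratio was -0.51 for Krt8 and -0.58 for Krt18, against -0.42 and -0.50 without subtraction. Scaled by club markers, which took away 14.9% of tumor-bearing and 64.9% of control ciliated-like UMIs, it was -1.52 for Krt8 and -1.53 for Krt18. Summed club markers in ciliated-like cells were 17400 and 9410 CPM and summed AT2 markers 20425 and 32486 CPM, and their part in the ratios was not tested.

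In ciliated-like cells Elf3, an epithelial transcription factor, stood at 50.4 and 107 CPM and was called lower, and Sox2, which specifies airway epithelium, stood at 145 and 91.2 CPM and was called higher, the calls among 3 keratin regulators tested. Perp was called higher at 112 and 75.0 CPM, 1 of 9 desmosome and keratin linker genes tested, with none lower. Of 8 transition genes tested, Lgals3 (185 and 121 CPM) and Nupr1 (295 and 225 CPM) were called higher. Sfn (61.7 and 143 CPM) and Hbegf (40.0 and 74.2 CPM) were called lower. Of all genes tested in ciliated-like cells, 2.85% were called higher and 2.58% lower.

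**Figure D2:**
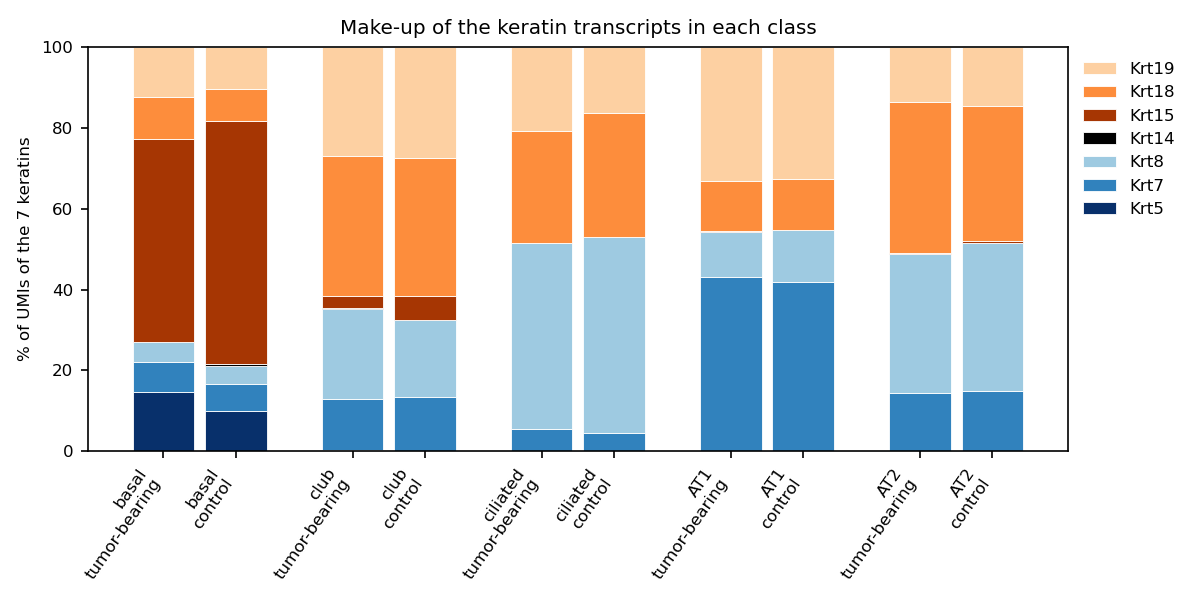
Share of each keratin in the UMIs of the 7 keratins (percent, bars summing to 100), per class, tumor-bearing left of control; type II keratins are blue, type I orange, brown and black. Krt15 makes up 50.2% and 60.2% of the bar in basal-like cells, Krt7 and Krt19 most of the bar in AT1-like cells and Krt8 and Krt18 most of it in ciliated-like and AT2 cells.

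Club-like cells, which secrete proteins onto the airway surface, had low keratin CPM. Krt18 stood at 248 CPM (235 to 261) in tumor-bearing and 330 CPM (294 to 369) in control club-like cells, Krt19 at 191 and 267 CPM, Krt8 at 159 and 184 CPM and Krt7 at 88.8 and 129 CPM. The summed club markers, mostly the secretoglobin Scgb1a1, stood at 615111 and 566546 CPM, which presses all other CPM down. Without the 10 most abundant genes Krt18 stood at 731 and 880 CPM and Krt8 at 468 and 490 CPM. After thinning, 31.5% and 27.5% of the club-like cells held none of the 7 keratins. Krt7 was found in 14.8% (10.7 to 19.7) and 15.9% (8.24 to 26.7) of them, close to its share in endothelial-like cells, 11.0% (8.35 to 14.1) and 17.5% (8.75 to 29.9). Without these 10 genes Krt7 stood at 262 and 344 CPM in club-like and at 95.4 and 172 CPM in endothelial-like cells. Its place against the background thus depends on the scale.

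Krt15 in club-like cells came from a small cluster. Of 5 keratins tested, Krt15 alone was at least 4-fold above AT2, 8.85-fold and 23.6-fold, against 2.03% and 1.98% of all genes. In the main cluster (233 and 63 cells) it stood at 5.26 and 4.76 CPM. In a cluster of 24 and 6 cells led by Bpifa1 and Scgb3a1, secreted proteins of the upper airway, it stood at 198 and 653 CPM. Krt5 in that cluster had 33.0 and 13.3 CPM, and the single Krt14 positive club-like cell was also there. Without the small cluster no keratin was called above AT2.

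Between the libraries, 4 of 5 keratins were called lower in tumor-bearing club-like cells, against 8.62% of all genes, while 1.34% were called higher. The ratios were 0.362 (0.259 to 0.510) for Krt15, 0.689 (0.562 to 0.849) for Krt7, 0.718 (0.624 to 0.828) for Krt19 and 0.750 (0.662 to 0.853) for Krt18. The ratio of Krt15 in the main cluster was 1.11 (0.385 to 4.35), and in the small one 0.303 (0.212 to 0.439). The median of all genes tested was -0.19 on the log2 scale. On the scale without the 10 genes over 1% of the UMIs of some class, 2 keratins were called. With the main cluster alone 1 was called, and with no doublets removed 1. At a Leiden resolution of 0.5, where the class held 24 and 6 cells, the log2 ratio was -1.20 for both Krt18 and Krt19, against -0.41 and -0.48 as reported. Median UMIs per club-like cell were 22938 and 12105.

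**Figure D3:**
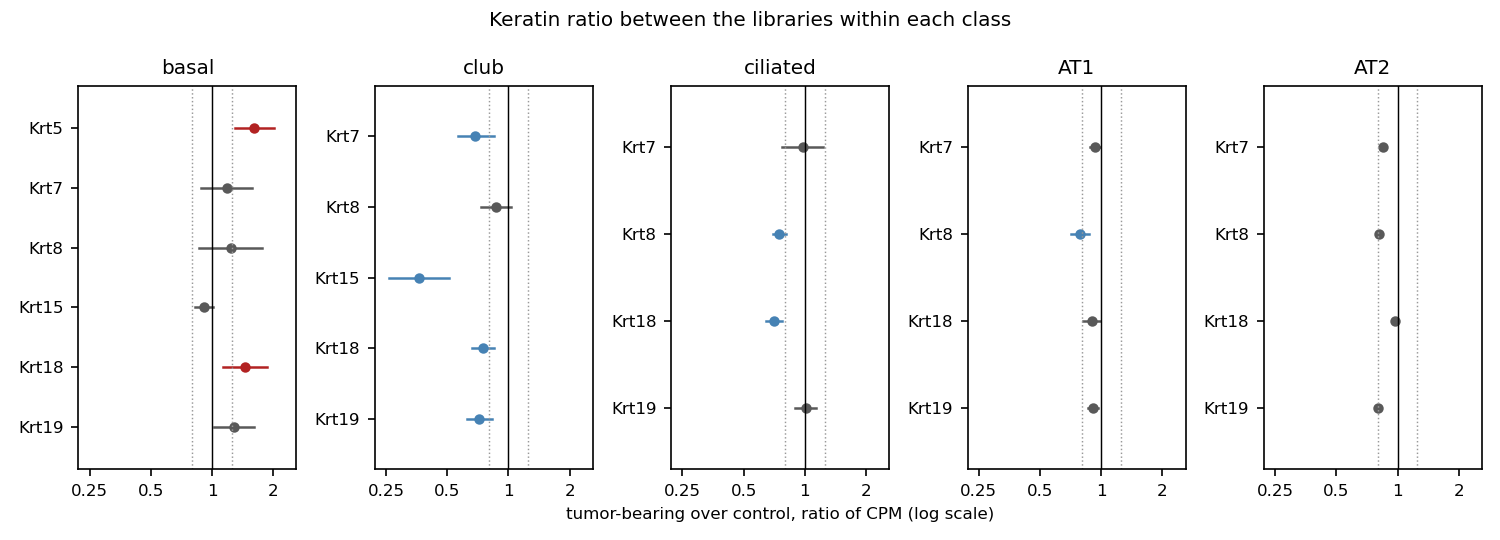
Ratio of CPM, tumor-bearing over control (log axis), of each keratin that reached 20 CPM in either library, per class, with exact 95% intervals that cover counting error; red points were called higher and blue ones lower, and dotted lines mark 0.8 and its inverse. Krt14 in basal-like cells, with 0 and 7 UMIs, is not drawn; Krt15 in club-like cells, at 0.362, lies farthest from 1.

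AT2 cells, which make surfactant, carried Krt8 and Krt18 as their main keratins at low level. Krt18 stood at 252 CPM (249 to 256) in tumor-bearing and 260 CPM (256 to 264) in control AT2 cells, and Krt8 at 231 CPM (227 to 235) and 285 CPM (282 to 289). Krt8 was found in 32.2% and 39.2% of thinned AT2 cells, against 3.53% and 7.02% of endothelial-like cells. Krt18 was in 35.9% and 35.8%, against 5.39% and 12.3%. Other non-epithelial clusters were not used as background. Smooth muscle and pericyte-like cells (48 and 8) had Krt8 at 86.6 and 336 CPM and Krt18 at 113 and 168 CPM. Fibroblast-like cells (19 and 8) had Krt8 at 45.9 and 279 CPM and Krt18 at 30.6 and 335 CPM. Neutrophil-like cells (14 and 2) had Krt8 at 19.9 and 0 CPM and Krt18 at 29.9 and 0 CPM. Many of these values rest on few UMIs. Empty droplets held Krt8 at 221 and 306 CPM and Krt18 at 260 and 283 CPM. AT2 cells were 82.1% and 90.9% of the barcodes with 2000 UMIs and can be a source of that free RNA. The likeness to empty droplets therefore cannot show whether AT2 cells express either gene. None of the 7 keratins was found in 35.7% and 29.1% of thinned AT2 cells. Before thinning, median UMIs were 8976 and 6939 in AT2 cells and 3039.5 and 2640 in endothelial-like cells, and Krt8 was in 74.0% and 74.2% of AT2 cells.

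Krt7 and Krt19 were lower. Krt7 had 98.0 and 116 CPM, below the 148 and 172 CPM of empty droplets, and was in 15.4% (14.6 to 16.3) and 18.2% (17.4 to 18.9) of AT2 cells. Endothelial-like cells held it in 11.0% (8.35 to 14.1) and 17.5% (8.75 to 29.9). By this measure the tumor-bearing AT2 share lay above that of endothelial-like cells, and the control share could not be told from it. By CPM the intervals of the 2 classes overlapped in both libraries. Without the 10 most abundant genes Krt7 stood at 171 and 198 CPM in AT2 and 95.4 and 172 CPM in endothelial-like cells. Its place against this background thus depends on the scale. Krt7 in endothelial-like cells stood at 58.2% and 90.0% of its level in empty droplets, and Krt19 at 34.2% and 45.6%. Krt8 stood at 10.2% and 19.5% of its level there and Krt18 at 12.0% and 29.5%. The part of AT1 cells in this background was not tested. Krt19 had 91.7 and 114 CPM and was in 15.2% and 17.98% of AT2 cells, against 6.02% and 8.77% of endothelial-like cells. Smooth muscle and pericyte-like cells had Krt7 at 411 and 448 CPM and Krt19 at 234 and 392 CPM. Fibroblast-like cells had Krt7 at 122 and 251 CPM and Krt19 at 230 and 950 CPM. Neutrophil-like cells had Krt7 at 29.9 and 0 CPM and Krt19, on 6 and 4 UMIs, at 59.8 and 799 CPM. In AT2 cells Krt15 (2.37 and 2.46 CPM) stayed below its 17.4 and 15.5 CPM in empty droplets.

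No keratin of AT2 cells was called between the libraries, 0 of 4 tested, against 4.31% of all genes called higher and 3.99% called lower. Krt19 (0.803, 0.776 to 0.831), Krt8 (0.809, 0.792 to 0.826) and Krt7 (0.843, 0.816 to 0.872) had ratios below 1 that did not reach 0.8, and Krt18 was at 0.971 (0.950 to 0.991). The type I share of keratin UMIs was 51.3% (50.8 to 51.7) and 48.4% (48.0 to 48.8). With an Sftpc threshold of 20%, Krt8 (-0.33 on the log2 scale) and Krt19 (-0.36) were called lower.

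Keratins were higher in AT2 cells with less Sftpc. Counting UMIs other than Sftpc alone in the total, Krt8 stood at 495 CPM (tumor-bearing) and 535 CPM (control) in cells with 15 to 20% Sftpc and at 230 and 299 CPM in cells with 30% or more. Krt19 stood at 255 and 260 CPM in the lowest band and at 83.1 and 115 CPM in the highest. Just inside the threshold (15 to 16%, 55 and 70 cells) Krt8 had 528 and 623 CPM on this scale, and just outside it (14 to 15%, 35 and 43 barcodes) 631 and 668 CPM. In every band of 15% or more Krt8 was lower in the tumor-bearing library. Krt18 stood at 498 and 487 CPM in the band of 15 to 20% and at 406 and 395 CPM in that of 20 to 25%. In the bands above these Krt18 was lower in the tumor-bearing library, at 302 and 321 CPM (25 to 30%) and 259 and 282 CPM (30% or more).

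**Figure D4:**
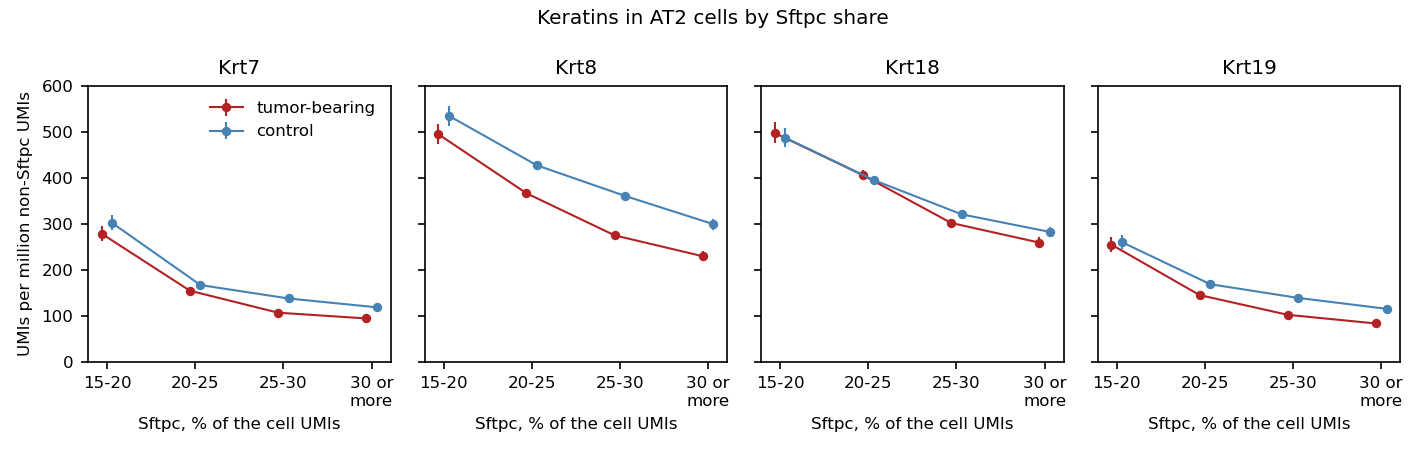
Keratin CPM over UMIs other than Sftpc (linear axis) in AT2 cells grouped by the share of Sftpc, tumor-bearing (red) and control (blue), with exact 95% Poisson intervals. Each of the 4 keratins is highest in the band of 15 to 20% and lowest at 30% or more in both libraries.

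Clusters of AT2 cells, made without keratins, differed in the direction of the ratio. In the cluster led by Areg (an EGF receptor ligand), Clu and Kcnk2, followed by Lgals3, Anxa5 and Ctsh, all 4 keratins stood higher in 634 tumor-bearing than in 2338 control cells. Krt8 had 513 and 436 CPM, a ratio of 1.18 (1.13 to 1.23), and Krt18 had 516 and 394 CPM, a ratio of 1.31. Krt19 had 213 and 171 CPM and Krt7 had 192 and 159 CPM there. Of its 6 leading genes, Areg, Clu and Lgals3 belong to the list of AT2 to AT1 transition genes. In the clusters led by Fos and Egr1 (2344 and 2784 cells), Nrn1 and Scd2 (392 and 3789 cells) and Lrg1 and Bex2 (2380 and 147 cells), Krt8 had ratios of 0.849 (0.818 to 0.882), 0.847 (0.755 to 0.947) and 0.750 (0.657 to 0.860).

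Of 10 AT2 clusters with at least 20 cells in each library, the interval of the Krt8 ratio lay above 1 in 2 and below 1 in 6. The second with a higher ratio, led by the airway genes Bpifa1 and Scgb1a1 (79 and 142 cells), had Krt8 at 303.5 and 206.5 CPM. Weighted equally, the clusters gave -0.11 for Krt8, -0.07 for Krt19 and 0.07 for Krt18 on the log2 scale. Clusters led by Cldn5, Ctla2a and Pf4, Fam183b, and Hopx carry genes of endothelial cells, platelets, ciliated cells and AT1 cells beside Sftpc, and the one led by Hopx had the most Krt7, 594 and 536 CPM. The part of mixed droplets in these values was not tested.

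**Figure D5:**
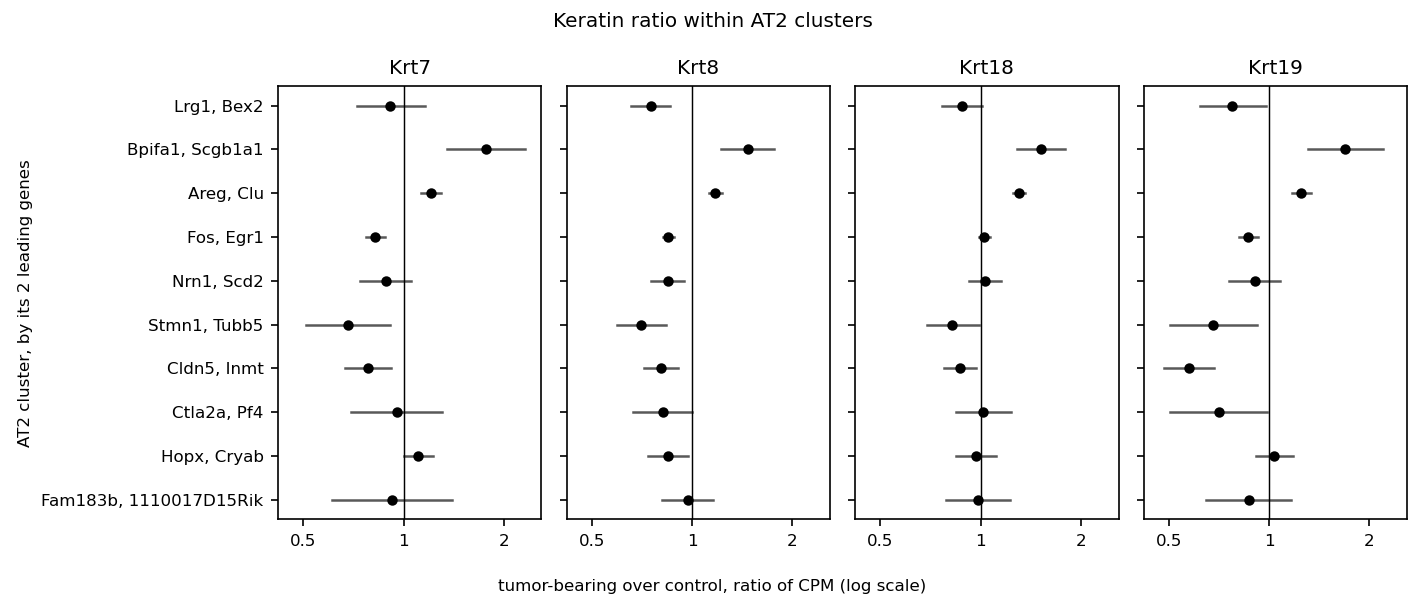
Ratio of CPM, tumor-bearing over control (log axis), of 4 keratins within the 10 AT2 clusters that hold at least 20 cells of each library, with exact 95% intervals that cover counting error; clusters are named by their leading genes. All 4 keratins lie above 1 in the clusters led by Bpifa1 and by Areg, and Krt8 lies below 1 in the other 8.

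A few AT2 cells held several Krt8 transcripts. At 2000 UMIs, 159 of 6729 tumor-bearing cells, 2.36% (2.01 to 2.75), and 364 of 10008 control cells, 3.64% (3.28 to 4.02), had at least 3 Krt8 UMIs. These cells had Krt18 at 711 and 618 CPM, against 212 and 217 CPM in AT2 cells with none. Krt19 stood at 307 and 278 CPM, against 74.9 and 92.8 CPM. Of the 15 AT2 to AT1 transition genes, Lgals3 had 219 and 180 CPM there, against 58.8 and 56.8 CPM. Areg had 353 and 208 CPM, against 92.1 and 48.7 CPM, and Sfn 55.5 and 56.7 CPM, against 14.8 and 20.1 CPM. Cldn4, a claudin of the transition state, had 17.4 and 4.22 CPM, against 0.731 and 0.714 CPM. Hbegf, Cdkn1a and Clu were also higher in both libraries. Nupr1 was not, with 192 and 201 CPM, against 195 and 218 CPM. Ctgf (4.68 and 11.6 CPM, against 5.92 and 3.04 CPM) and Fn1 (0 and 1.41 CPM, against 1.46 and 0.368 CPM) differed in direction between the libraries. Itgb6, Tnip3, Sprr1a, Trp53 and Ndrg1 were at most 23.4 CPM there.

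Ager, an AT1 marker, differed less, with 2312 and 2046 CPM, against 1888 and 1724 CPM in cells without Krt8. Among cells with at least 3 Krt8 UMIs, 6.92% and 7.69% were among the highest doublet scores, against 6.60% and 8.38% of cells with none. Summed ciliated markers were 695 and 645 CPM, against 338 and 386 CPM, and their part was not tested. Krt18 was in 43.6% (41.5 to 45.7) and 40.3% (38.8 to 41.8) of Krt8 positive AT2 cells, against 32.3% (30.9 to 33.7) and 32.8% (31.7 to 34.0) of Krt8 negative ones. In the whole AT2 class, 7 of 15 transition genes were tested. Areg (127 and 69.4 CPM) and Hbegf (67.4 and 50.3 CPM) were called higher in the tumor-bearing library, and Sfn lower (17.5 and 22.1 CPM). Of all genes tested in that class, 4.31% were called higher and 3.99% lower.

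Genes that anchor keratins were at low level in AT2 cells. Of 7 desmosome and keratin linker genes tested, Jup, plakoglobin, was called lower at 55.7 and 69.9 CPM, and none higher. Dsp, desmoplakin, stood at 17.7 and 20.3 CPM. None of 3 hemidesmosome genes was called. Of 4 keratin regulators tested, Klf4 was called higher at 57.3 and 43.2 CPM. Among all genes tested in AT2 cells, 4.31% were called higher and 3.99% lower.

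Of the 44 other keratin genes counted, 4 reached 20 CPM in a class and 24 had 0 UMIs in the 5 classes. Besides Krt17, these were Krt23, a type I keratin highest in AT2 cells at 78.7 and 74.2 CPM, Krt10, highest in AT1-like cells at 38.8 and 19.4 CPM, and Krt1, highest in basal-like cells at 21.5 and 13.2 CPM.

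Over the 10 profiles of 5 classes in 2 libraries, the genes whose log2 CPM tracked each keratin most closely, among 8436, were computed as a description. Dcn, 4833423E24Rik and Dlk2 came first for Krt5, and 4631405K08Rik, Aqp3 and Lgr6 for Krt15. Flrt3, Chst8 and Mal2 came first for Krt7, Atoh8 for Krt19, Hspbp1, Mrps33 and Hcfc1r1 for Krt8, and Eno1, Psmc5 and Cct3 for Krt18, with Pearson's r of 0.96 or more for the first of each. Ugt2b34, Oaf and Pitx1 came first for Krt14, whose profile rests on the few UMIs given above. The profiles share 2 libraries, so the r is not a test.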

How the data were processed

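Per the labels and the series' design text, each library was deposited by the authors as unnormalized UMI counts for every gene in every barcode, made with Cell Ranger 2.1.0 against mm10; the counting of strand is not given in the sources used here, and R 3.5.3 and Seurat stand in the submitters' processing notes. Barcodes with at least 2000 UMIs were kept. Barcodes with at least 15% Sftpc UMIs were AT2 cells; the rest, with at least 500 genes and at most 20% mitochondrial UMIs, were clustered with scanpy 1.11.5 (2000 variable genes, 30 components, 15 neighbours, Leiden resolution 1) without keratins and named from marker lists by a rule set after seeing the clusters, so classes are rebuilt and not the authors'. Scrublet's own threshold marked 0 barcodes, so the highest scores were taken as doublets (0.8% per 1000 barcodes, 537 tumor-bearing and 969 control) and removed, except 459 and 916 in AT2 cells, which were kept.

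Counts were summed per class. Genes with 20 CPM in either group were compared. Intervals are exact Poisson, binomial (Clopper-Pearson) and, for ratios, conditional binomial, at 95%, computed with scipy 1.17.1. Shares of cells used 2000 UMIs drawn from each cell. A gene was called where its intervals were separate and the ratio passed the threshold; calling was tested on simulated data. The members and gene lists were chosen with earlier results of these data known. Named were all members, other keratins reaching 20 CPM, up to 4 genes of each list by size of the AT2 ratio, and the 3 genes most like each member; list genes named in the other classes, and ATAAAAG, were chosen after their values were seen. Alternatives covered the UMI minimum, Sftpc threshold, doublets, clustering, scale, thresholds and subtraction of free RNA. Some genes that the rule for named genes selects are not reported here.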

Additional observations from a re-analysis of the deposited data

Results flagged for a closer look

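Krt18 moved in opposite directions among the classes, with ratios (tumor-bearing over control) of 1.46 in basal-like, 0.750 in club-like and 0.706 in ciliated-like cells. The difference between the classes was not tested, since each group is 1 library.

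Neuroendocrine-like cells (17 and 6), which enter no comparison, had Krt18 at 3051 CPM (2703 to 3431) in the tumor-bearing and 4041 CPM (3249 to 4967) in the control library. Krt8 stood at 2008 CPM (1728 to 2321) and 2649 CPM (2016 to 3417). Both lie above every class of the comparisons in their library.

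Ratios of keratins also ran in opposite directions among AT2 clusters, and the difference was not tested. In the cluster led by Bpifa1, Krt7, Krt8 and Krt19 had ratios of 1.77, 1.47 and 1.70, and in that led by Areg the ratio of Krt19 was 1.251. In the cluster led by Stmn1, a gene of dividing cells, they were 0.679 for Krt7, 0.703 for Krt8 and 0.678 for Krt19. Krt7 and Krt19 had 0.779 and 0.574 in the cluster led by Cldn5, Krt8 and Krt19 had 0.750 and 0.776 in that led by Lrg1, and Krt19 had 0.709 in that led by Ctla2a.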

How the results depend on the processing

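The called ratios kept their direction under each alternative that gave them a value; Krt15 in club-like cells fell under 20 CPM in both libraries, and gave none, with no doublets removed and without the smaller cluster, in whose absence its ratio was 1.11 (0.385 to 4.35). The 4-fold counts of basal-like (4) and AT1-like cells (2) did not move by over 1.5 times. That of basal-like cells was 3 without genes over 1% and 3 at 5-fold. Of the 2 basal-like keratins called between the libraries, 1 was called with a minimum of 3500 UMIs, with an Sftpc threshold of 20% and with no doublets removed. Of 4 in club-like cells, 1 was called with no doublets removed, 2 without genes over 1% and 1 without the smaller cluster; the 4-fold count of 1 was 0 with no doublets removed and without that cluster. In ciliated-like cells the 4-fold count of 2 was 1 with an Sftpc threshold of 10%, 0 without genes over 1% and 0 at 5-fold, and the count of 2 between libraries was 1 with clusters weighted equally. Subtracting free RNA scaled by club markers moved the ciliated-like log2 ratios most, to -1.52 for Krt8 (-0.42 as reported), -1.53 for Krt18 (-0.50), -0.97 for Krt19 (0.01) and 1.35 for Krt7 (-0.04). A Leiden resolution of 0.5, which left 24 and 6 club-like cells, moved those of club-like cells to -1.20 for Krt18 (-0.41), -1.20 for Krt19 (-0.48), -0.94 for Krt7 (-0.53) and -0.66 for Krt8 (-0.21). In AT1-like cells the count of 1 was 3 with Sftpc at 10%, 2 at a Leiden resolution of 0.5, 2 with separate clustering of the libraries, 2 after subtracting free RNA scaled by hemoglobin, 0 without genes over 1% and 0 with clusters weighted equally. In AT2 cells the count of 0 was 1 with Sftpc at 10%, 2 at 20% and 1 with the mean over cells. The cause was not tested. Weighting clusters of ciliated-like, AT1-like and club-like cells equally, and leaving out the smaller club-like cluster, were chosen after seeing the data. No paired analysis was possible because each group has 1 library. Basal-like ratios rest on 19 and 41 cells.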

Other observations

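Barcodes with AT2 markers but under 15% Sftpc (92 tumor-bearing and 127 control), in a cluster led by Gsta1, Slpi and Sfn, held more simple-epithelial keratin than AT2 cells. Krt8 stood at 877 CPM (810 to 949) and 780 CPM (728 to 835), Krt18 at 772 and 733 CPM, Krt19 at 501 and 421 CPM and Krt7 at 362 and 420 CPM. They lie beyond the Sftpc threshold, on which keratin levels depend, and enter no comparison.

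Neuroendocrine-like cells had Krt7 at 1306 and 1302 CPM beside their high Krt8 and Krt18, but Krt19, on 7 and 2 UMIs, at 76.8 and 89.8 CPM.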
